A study of Mus musculus with 8 samples.

Results

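The RNA-binding proteins of the ZFP36 family and the factors that carry out mRNA decay were examined in multipotent progenitors (MPPs) that express the NUP98-HOXA10hd fusion (NA). The 10 genes were taken by name from a table of 37980 genes. They are Zfp36, Zfp36l1 and Zfp36l2, the stabilising factor Elavl1, the CCR4-NOT deadenylase genes Cnot1, Cnot6l, Cnot7 and Cnot8, and the decapping genes Dcp1a and Dcp2. All 10 were found, and all 10 were among the 11451 genes with enough signal to be tested. The libraries were made from 1000-cell aliquots of bone marrow MPPs of C57BL/6 mice, gated on c-kit, Sca1 and CD135 and against lineage markers, CD48 and CD150. The 4 NA libraries came from NA LSL/+; Vav-Cre mice, in which Cre driven by Vav switches the fusion on in blood cells, and the 4 WT libraries came from wild-type mice. They are called NA1 to NA4 and WT1 to WT4. Ages, the number of mice behind a library and whether the WT mice carried Vav-Cre are not given in the sources used here. Nothing says that libraries of a group came from separate animals, so the p-values measure only the spread between these samples.

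Decay of most mRNAs begins when the CCR4-NOT complex shortens the poly(A) tail. The DCP1-DCP2 enzyme then removes the cap so that the body of the transcript is degraded from the 5′ end, or the exosome degrades it from the 3′ end. ZFP36-family proteins bind AU-rich elements in 3′ untranslated regions through tandem CCCH zinc fingers and bring CCR4-NOT to the bound mRNA, while ELAVL1 (HuR) binds AU-rich or U-rich sequence and can stabilise it. Many of the mRNAs regulated in this way encode cytokines, immediate early transcription factors and cell cycle proteins, and ZFP36L2 is needed for haematopoietic stem and progenitor cells to form blood.

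Several members carry the element themselves. The nonamer TTATTTATT, a high-affinity site of ZFP36-family zinc fingers, was searched on the sense strand of the annotated 3′ UTRs (GENCODE M21, build mm10), with overlapping matches counted. Of 10730 tested genes with a complete coding transcript, 8.69% held at least 1 copy. The annotation gives no complete 3′ end for coding transcripts of Cnot8, so 9 members could be searched. Zfp36, Zfp36l1, Zfp36l2 and Cnot6l each held 1 copy, Elavl1 held 8 copies in 3 separate blocks within 55 bases, and no copy was found in Cnot1, Cnot7, Dcp1a or Dcp2. The 29 bases around the site follow for the 5 genes with a copy, since these members could be read by the proteins that the family encodes. Capitals mark the nonamer, and for Elavl1 the first of its copies.
Zfp36, chr7:28376951-28376979, minus strand: tatgacgactTTATTTATTgtattaagat
Zfp36l1, chr12:80108167-80108195, minus strand: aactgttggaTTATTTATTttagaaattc
Zfp36l2, chr17:84184914-84184942, minus strand: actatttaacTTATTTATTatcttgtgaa
Elavl1, chr8:4285788-4285816, minus strand: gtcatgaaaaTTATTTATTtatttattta
Cnot6l, chr5:96071161-96071189, minus strand: agggaagagaTTATTTATTtttgtttcct
The copies of the 3 ZFP36-family genes begin at base 589 of 774 in the 3′ UTR of Zfp36, at base 1404 of 1835 in Zfp36l1 and at base 821 of 1822 in Zfp36l2. A match is a description of the sequence and not evidence of binding in these cells.

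A few facts of the libraries bear on all the values. Estimated depth ran from 3877029 to 4916903 reads, and NA4, WT2 and WT3 were shallower than the other 5 libraries. Values are normalised counts, that is, estimated reads divided by 1 size factor per library. NA4 and WT4 stood closer to the mean of the other 3 libraries of their group (SD of the log2 difference 0.228 and 0.165 over 9000 genes) than the other libraries did (0.329 to 0.388), so counts of called genes are also given without NA4 and WT4. Whether they share material with the other libraries was not tested, and if they do, the values given for n = 4 rest on fewer independent samples. Sex-linked transcripts separated the groups, with Xist averaging 1104 ± 173 in WT and 1.92 ± 1.0 in NA libraries (SD, n = 4 each) and the Y-linked Eif2s3y at 604 ± 70.8 in NA and at most 0.888 in any WT library. The labels give no sex, and genotype and sex cannot be told apart for any result that follows. Of the genes of the sort, Kit and Flt3 (CD135) were expressed in all 8 libraries, and Slamf1 (CD150), which was gated against, averaged 19.7 ± 19.4 in NA and 20.9 ± 6.51 in WT libraries. Ly6a (1277 ± 88.5 in NA, 1548 ± 63.3 in WT) and Cd48 (17.7 ± 5.36 in NA, 56.1 ± 21.3 in WT) were lower in NA MPPs (SD, n = 4 each). Markers of mature cells were low. The summed level of 9 granulocyte and monocyte markers was 35.5 to 49.6 in NA and 61.3 to 331 in WT libraries, with Ly6g and Elane at 0 in every library, and that of 6 erythroid markers was 34.3 to 64.9 in NA and 138 to 224 in WT libraries. The summed level of 6 B cell markers was 101 to 228 in NA and 181 to 263 in WT libraries, almost all of it Cd79b, with Ms4a1 and Pax5 at 0. The summed level of 6 T and NK cell markers was 137 to 161 in NA and 129 to 148 in WT libraries. All of it was Cd4 and Nkg7, since Cd3e, Cd3d, Cd3g and Cd8a were at 0 in every library. The summed level of 5 megakaryocyte markers was 206 to 287 in NA and 212 to 284 in WT libraries. That of 5 mast cell and basophil markers was 17.9 to 26.1 in NA and 1.14 to 19.5 in WT libraries, with Mcpt8 and Prss34 at 0. The part of these differences in the results below was not tested, and fewer cells of a type and less RNA per cell cannot be told apart in sorted aliquots.

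All 3 expressed ZFP36-family genes were higher in NA MPPs, with log2 fold changes of 0.58 to 0.70, and none of the other 7 members was called. By limma with Benjamini-Hochberg adjustment over all genes, 3 of 10 members were higher and 0 lower at an adjusted p below 0.05. At an unadjusted p below 0.05 the counts were 4 higher (Cnot6l in addition) and 1 lower (Cnot7), where 16.9% and 15.6% of all tested genes were higher and lower. Across all tested genes 17.9% were called, 10.1% higher and 7.87% lower. Without NA4 and WT4 only Zfp36l2 was called among the members, and 515 of 11117 tested genes in all. The median log2 fold change of the 10 members was 0.20, where that of all tested genes was -0.011. The NA and WT values did not overlap for the same 3 members, as for 22% of all tested genes.

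**Figure D1:**
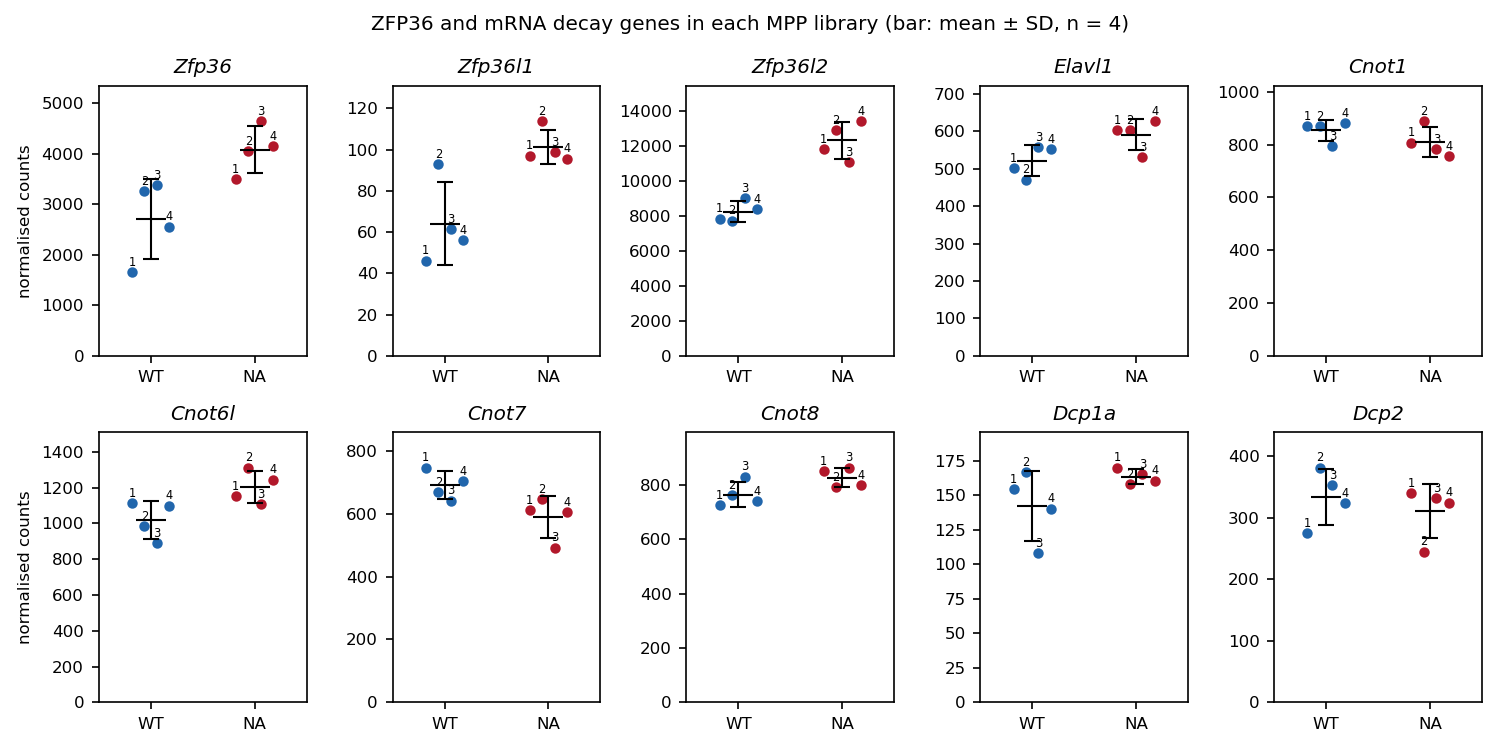
Normalised counts (vertical axes, from 0) of the 10 members in the 4 WT (blue) and 4 NA (red) libraries, with library numbers beside the points and bars for mean ± SD. The NA points lie above all WT points for Zfp36, Zfp36l1 and Zfp36l2, and the groups overlap in the other 7 panels.

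Zfp36l2, which encodes the family member that was most abundant here, was at 11837, 12918, 11096 and 13416 normalised counts in NA1 to NA4. In WT1 to WT4 it was at 7841, 7738, 9025 and 8379. Every NA library exceeded every WT library, and the spread within each group was small beside the gap. The group means were 12317 ± 1047 in NA and 8246 ± 591 in WT (SD, n = 4 each). The log2 fold change was 0.58 (SE 0.0794, 95% interval 0.41 to 0.75), a 1.49-fold difference, with an adjusted p of 0.000263 by limma. The gene (ENSMUSG00000045817) lies at chr17:84183931-84187947 on the minus strand. It was called in all 21 alternative analyses, and without NA4 and WT4 its log2 fold change was 0.54 with an adjusted p of 0.00421.

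Zfp36 encodes tristetraprolin, the founding member of the family, which is itself an immediate early gene and limits the mRNAs of inflammatory cytokines. It was at 3503, 4052, 4649 and 4148 normalised counts in NA1 to NA4, and at 1659, 3269, 3378 and 2563 in WT1 to WT4. The groups did not overlap, but NA1 lay only just above WT3, and WT1 lay well below the other WT libraries. The group means were 4088 ± 469 and 2717 ± 793 (SD, n = 4 each). The log2 fold change was 0.64 (SE 0.174, 95% interval 0.26 to 1.01), and the adjusted p by limma was 0.0222. Without WT1 the log2 fold change was 0.42, still called at an adjusted p of 0.0236. The call was lost without NA3 (adjusted p 0.0537) or NA4 (0.0615), without NA4 and WT4 (0.114), with no filter on low values (0.0969) and with no variance trend (0.104). The gene (ENSMUSG00000044786) lies at chr7:28376784-28380253 on the minus strand.

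Zfp36l1, a paralogue that acts with Zfp36l2 in lymphoid development, was expressed at a far lower level. Its normalised counts were 97.1, 114, 98.8 and 95.7 in NA1 to NA4, and 46.2, 92.9, 61.5 and 55.9 in WT1 to WT4. All NA values lay above the WT values, with WT2 just below the lowest NA library. The log2 fold change was 0.70 (SE 0.225, 95% interval 0.21 to 1.18), between means of 101 ± 8.38 and 64.1 ± 20.2 (SD, n = 4 each). The adjusted p of 0.0457 was close to the threshold, and the call was kept in only 8 of the 21 alternative analyses, although the log2 fold change stayed between 0.56 and 0.89. Leaving out any library but WT2 took it past the threshold (adjusted p 0.0593 to 0.125), and without NA4 and WT4 it was 0.235. The gene (ENSMUSG00000021127) lies at chr12:80107754-80113013 on the minus strand. Zfp36l3, the remaining family gene, was at 0 in all libraries.

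The 3 intervals are wide and overlap, and whether the 3 genes differ in fold was not tested. The make-up of the family was similar in both groups. On a scale of normalised counts per kilobase of the main annotated transcript, the summed level of the 3 family genes was 4988 ± 304 in NA and 3331 ± 393 in WT libraries (SD, n = 4 each). Zfp36l2 made up 69.9% ± 3.37 of this sum in NA and 70.6% ± 6.02 in WT libraries. Zfp36 made up 29.4% ± 3.37 and 28.8% ± 5.90, and Zfp36l1 0.680% ± 0.0577 and 0.642% ± 0.182. The shares differed by less than the spread between libraries. Among WT libraries the share of Zfp36 was lowest in WT1 and reached 34.5% in WT2.

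**Figure D2:**
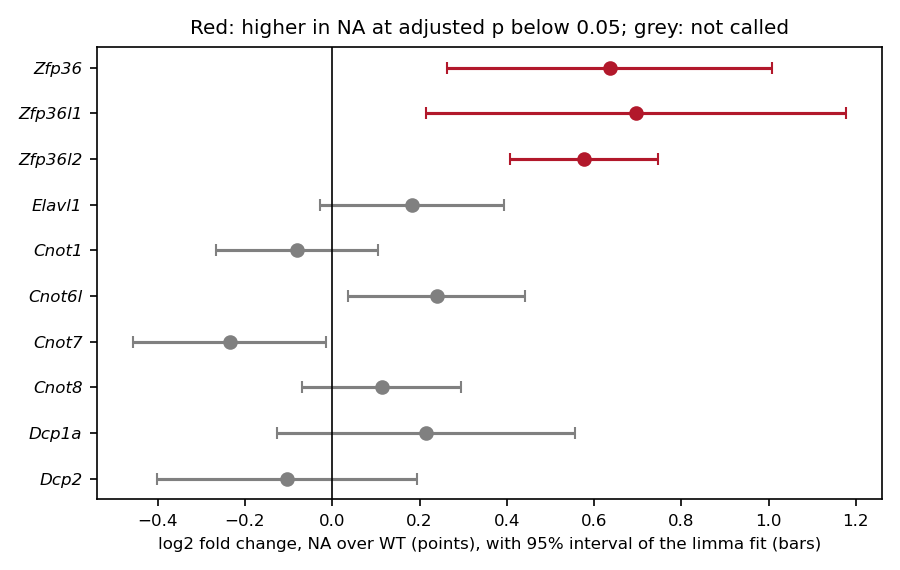
Log2 fold change of each member, NA over WT (horizontal axis, points), with the 95% interval of the limma fit (bars); red marks genes called higher and grey genes not called. The 3 ZFP36-family genes lie at 0.58 to 0.70 with intervals above 0, and the other 7 lie between -0.24 and 0.24.

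Elavl1, whose protein competes with ZFP36 proteins for AU-rich mRNAs, was not called. It was at 603, 603, 531 and 627 normalised counts in NA1 to NA4 and at 502, 471, 558 and 552 in WT1 to WT4. NA3 lay within the WT range, and the other 3 NA libraries lay above it. The log2 fold change was 0.18 (95% interval -0.03 to 0.39) with an adjusted p of 0.218 by limma. Elavl1 (ENSMUSG00000040028) lies on chromosome 8, where its span overlaps Ccl25 on the opposite strand, which was at 15.4 to 35.1 normalised counts. Elavl2 and Elavl3 were at or near 0 and Elavl4 at no more than 10.6 normalised counts in any library, so Elavl1 was the only ELAV gene that could be tested.

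The 4 CCR4-NOT members showed small differences in both directions, and none passed the test. Cnot1 encodes the scaffold on which the complex is built. It was at 807, 888, 782 and 756 normalised counts in NA1 to NA4 and at 871, 871, 795 and 880 in WT1 to WT4. The groups overlapped, with a log2 fold change of -0.08 (95% interval -0.27 to 0.10, adjusted p 0.553 by limma). Cnot6l encodes a deadenylase of the EEP (endonuclease-exonuclease-phosphatase) type. It was at 1151, 1311, 1107 and 1245 in NA1 to NA4 and at 1112, 983, 889 and 1100 in WT1 to WT4. Only NA3 fell within the WT range, and the log2 fold change was 0.24 (95% interval 0.04 to 0.44, adjusted p 0.0947). Cnot7 and Cnot8 encode the alternative deadenylases of the DEDD type, of which 1 is present in each complex. Cnot7 was at 610, 645, 492 and 605 normalised counts in NA1 to NA4 and at 746, 669, 641 and 704 in WT1 to WT4. Only NA2 reached the WT range, and the log2 fold change was -0.24 (95% interval -0.46 to -0.01, adjusted p 0.131). Cnot8 was at 852, 792, 864 and 801 in NA1 to NA4 and at 725, 764, 831 and 741 in WT1 to WT4. These groups overlapped, with a log2 fold change of 0.11 (95% interval -0.07 to 0.30, adjusted p 0.382).

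The values of Cnot6l and Cnot7 depended on base composition. Both have transcripts of low GC content (37.6% and 38.2%). After the trend of log2 values on transcript GC content was removed in each library, the log2 fold change of Cnot7 was -0.47 with an adjusted p of 0.00304, and that of Cnot6l was -0.0072 with an adjusted p of 0.960. Cnot7 also overlaps Vps37a on the opposite strand, which was at 161 to 264 normalised counts. Strand use in the counting is not stated, so reads of overlapping genes cannot be told apart. The identifiers are ENSMUSG00000036550 for Cnot1 and ENSMUSG00000031601 for Cnot7 (both on chromosome 8), ENSMUSG00000034724 for Cnot6l (chromosome 5) and ENSMUSG00000020515 for Cnot8 (chromosome 11). Genes on the opposite strand are also annotated across Zfp36, Zfp36l1 and Zfp36l2 (Gm44710, Gm26669 and AC132455.1), and their values were not used here.

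Neither decapping member was called. Dcp1a encodes an activator of decapping, and was at 170, 158, 165 and 161 normalised counts in NA1 to NA4 and at 154, 166, 108 and 140 in WT1 to WT4. The NA values lay close together near the top of the WT range, and the log2 fold change was 0.22 (95% interval -0.13 to 0.56, adjusted p 0.372 by limma). Dcp2 encodes the enzyme that cleaves the cap. It was at 341, 245, 332 and 325 in NA1 to NA4 and at 275, 382, 353 and 324 in WT1 to WT4, so that both groups held 1 low library. The log2 fold change was -0.10 (95% interval -0.40 to 0.20, adjusted p 0.644). These intervals still allow changes of up to 1.47-fold for Dcp1a and 1.14-fold for Dcp2 in the upward direction. Dcp1a (ENSMUSG00000021962) lies on chromosome 14 and Dcp2 (ENSMUSG00000024472) on chromosome 18.

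Compared per kilobase, the members covered a wide range of levels, in nearly the same order in both groups. In WT libraries Zfp36l2 was highest, at 2336 ± 167 normalised counts per kilobase, followed by Zfp36 at 974 ± 284 (SD, n = 4 each). Cnot8 was at 365 ± 22.2 and Cnot7 at 231 ± 15.2. Cnot6l (119 ± 12.3), Cnot1 (102 ± 4.76) and Elavl1 (90.7 ± 7.23) came next, and neighbours among these 3 were not separated by their libraries. Dcp2 was at 38.7 ± 5.27, and Dcp1a (25.5 ± 4.52) and Zfp36l1 (21.4 ± 6.75) overlapped at the bottom. In NA libraries Zfp36l2 was at 3489 ± 297, Zfp36 at 1465 ± 168, Cnot8 at 394 ± 17.2 and Cnot7 at 197 ± 22.3 normalised counts per kilobase. Zfp36l1, at 33.9 ± 2.80, overlapped Dcp2 (36.1 ± 5.12) there and stood above Dcp1a (29.3 ± 0.945). Zfp36l2 and Zfp36 transcripts were more abundant than those of the scaffold Cnot1 in both groups by this measure, which depends on the transcript chosen. The transcript taken for Zfp36, of 2790 bases, begins upstream of the RefSeq start.

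Beyond the members, the wider decay machinery was described from lists of known genes. Leaving the 10 members out, these lists hold 132 tested genes, of which 30 were higher and 7 lower in NA MPPs by limma. This is 28.03% called, where 17.9% of all tested genes were called, and the median log2 fold change was 0.15. The balance depended on the scaling, in the lists as over all genes. The lists held 23 higher and 13 lower genes under total-count scaling, and 22 higher and 11 lower with the GC trend removed. Higher genes thus made up 81.1% of the calls as reported, 63.9% under total-count scaling and 66.7% with the GC trend removed. Among all called genes the shares were 56.1%, 41.3% and 48.9% in the same order. Without NA4 and WT4 7 of 131 tested genes (5.34%) were called, all higher (Btg1, Tob1, Lsm5, Celf1, Larp4b, Msi2 and Ywhaz). In that setting 515 of all 11117 tested genes were called, and 71.8% of these were higher. Of the 30 higher genes, 12 encode other RNA-binding proteins that act in 3′ UTRs. The counts per list that follow include any member that belongs to the list.

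The adaptor proteins of the BTG and TOB family, which bind the CNOT7 and CNOT8 deadenylases and stimulate them, held the highest median among the decay lists, at 0.82. Of the 5 tested, 4 (80%) were higher and 0 lower by limma, with the same counts at an unadjusted p below 0.05. Over all tested genes 10.1% were higher, and 16.9% at an unadjusted p below 0.05. Tob1 was at 92.4, 163, 189 and 156 normalised counts in NA1 to NA4 and at 59.5, 56.6, 60.3 and 66.6 in WT1 to WT4, without overlap (log2 fold change 1.25, SE 0.220, adjusted p 0.00174 by limma). Btg1, an antiproliferative gene of quiescent cells, was at 2279 ± 257 in NA and 1314 ± 313 in WT libraries (SD, n = 4 each), or 0.82 on the log2 scale (adjusted p 0.00216). Tob2 had a log2 fold change of 0.72 (adjusted p 0.00786). Btg2 had the largest log2 fold change, 1.51 (adjusted p 0.0242), but its groups overlapped, since WT2 (1387) lay above NA1 (1323). It is also counted in the immediate early list described further below. Btg3 was not called (0.32, adjusted p 0.455). Without NA4 and WT4 2 of the 5 were called, Btg1 and Tob1, where 515 of all 11117 tested genes were called. Leaving out WT1 kept the same 4 calls and gave a list median of 0.65, where 930 of all 11332 tested genes were higher.

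The CCR4-NOT complex as a whole held 1 higher and 1 lower gene among 11 tested, with a median of 0.11. This is 18.2% called, near the 17.9% of all tested genes. Cnot9, which encodes a subunit that binds GW182 proteins, averaged 294 ± 47.9 in NA and 209 ± 18.2 in WT libraries (log2 fold change 0.48, adjusted p 0.0290). Cnot10, a subunit of a separate module with Cnot11, averaged 165 ± 19.9 in NA and 273 ± 36.5 in WT libraries (SD, n = 4 each), or -0.73 on the log2 scale (adjusted p 0.00333), and its NA values all lay below the WT values. Neither was called without NA4 and WT4. Of 8 other deadenylase genes, Pan3, the adaptor of the PAN2 nuclease, was higher (0.64, adjusted p 0.00634 by limma) and 0 were lower, or 1 higher and 1 lower at an unadjusted p below 0.05.

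Among 19 tested genes of decapping and decay from the 5′ end, 2 were higher, 1 was lower and the median was 0.046. The share called, 15.8%, was near the 17.9% of all tested genes, and with total-count scaling 1 was higher and 3 were lower. Lsm5, a subunit of the ring that binds shortened mRNA tails in the cytoplasm and U6 RNA in the nucleus, rose most. It was at 175, 153, 135 and 147 normalised counts in NA1 to NA4 and at 41.7, 62.3, 27.3 and 57.7 in WT1 to WT4 (log2 fold change 1.73, adjusted p 0.000374 by limma). Lsm2, of the same ring, had a log2 fold change of 0.61 (adjusted p 0.0424). Dcp1b, the paralogue of Dcp1a, was lower, at 187 ± 5.46 in NA and 254 ± 17.7 in WT libraries (SD, n = 4 each), or -0.43 on the log2 scale (adjusted p 0.0231), without overlap between the groups.

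The RNA exosome and its Ski cofactors, which degrade RNA from the 3′ end, held 3 lower and 0 higher genes among 17 tested by limma, with a median of -0.021. The share called, 17.6%, was near the 17.9% of all tested genes, of which 7.87% were lower. At an unadjusted p below 0.05 the counts were 3 lower and 1 higher. Dis3, the catalytic nuclease, was at 58.1 ± 18.4 in NA and 114 ± 21.2 in WT libraries (SD, n = 4 each), or -1.01 on the log2 scale (adjusted p 0.0173). The core subunit Exosc5 (-0.96, adjusted p 0.0137) and Hbs1l (-0.44, adjusted p 0.0173) were the others. None of them was called without NA4 and WT4. In nonsense-mediated decay 3 of 15 tested genes were higher and 0 lower, namely Upf3a (0.48), Upf2 (0.46) and Upf3b (0.42), with a list median of 0.069. This is 20% called, near the share of all tested genes. At an unadjusted p below 0.05 that list held 4 genes in each direction. Its calls turned with the scaling, to 0 higher and 3 lower (Smg5, Smg6 and Rbm8a) with total-count scaling, 0 higher and 1 lower (Rbm8a) with the GC trend removed, and 0 higher and 2 lower (Smg5 and Smg6) without NA3. Smg5, Smg6 and Rbm8a were named after their values were seen. Of 13 genes for poly(A) binding and microRNA silencing 4 were higher and 0 lower, with a median of 0.36, and these were Pabpc4 (0.48), Tnrc6c (0.46), Paip2b (0.41) and Pabpn1 (0.38). This is 30.8% higher, where 10.1% of all tested genes were higher. Unadjusted, 6 were higher and 0 lower. No gene of either list was called without NA4 and WT4.

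Other RNA-binding proteins that act in 3′ UTRs held 12 higher genes and 1 lower gene among 34 tested, with a median of 0.26. This is 35.3% higher and 2.94% lower, where 10.1% and 7.87% of all tested genes were. With the GC trend removed 8 of the 34 were higher and 2 lower, where 942 and 986 of all 11167 tested genes were. Msi2, a regulator of haematopoietic stem cells, was at 870, 1016, 1144 and 1007 normalised counts in NA1 to NA4 and at 659, 614, 590 and 583 in WT1 to WT4. The groups were far apart (log2 fold change 0.72, SE 0.0975, adjusted p 0.000244 by limma). Fmr1 (0.68, adjusted p 0.0173), Celf1 (0.62, adjusted p 0.0021) and Larp4b (0.60, adjusted p 0.0012) followed, and Ybx3 was the lower gene (-0.35, adjusted p 0.025). Without NA4 and WT4 Msi2, Celf1 and Larp4b were called. Among 16 genes for the kinases, the PP2A phosphatase and the adaptor proteins that bind phosphorylated ZFP36, 3 were higher and 1 lower, with a median of -0.072. This is 25% called, where 17.9% of all tested genes were called. The higher genes were all of the YWHA family, whose proteins hold phosphorylated tristetraprolin away from decay. Their log2 fold changes were 0.78 for Ywhaz, 0.50 for Ywhag and 0.40 for Ywhab, while Ywhae, Ywhah and Ywhaq were not called. The lower gene was the phosphatase scaffold Ppp2r1a (-0.38). With the GC trend removed 4 genes of this list were higher and 2 lower. Mapkapk2 and Ywhaq were called in addition there, and were named after their values were seen.

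**Figure D3:**
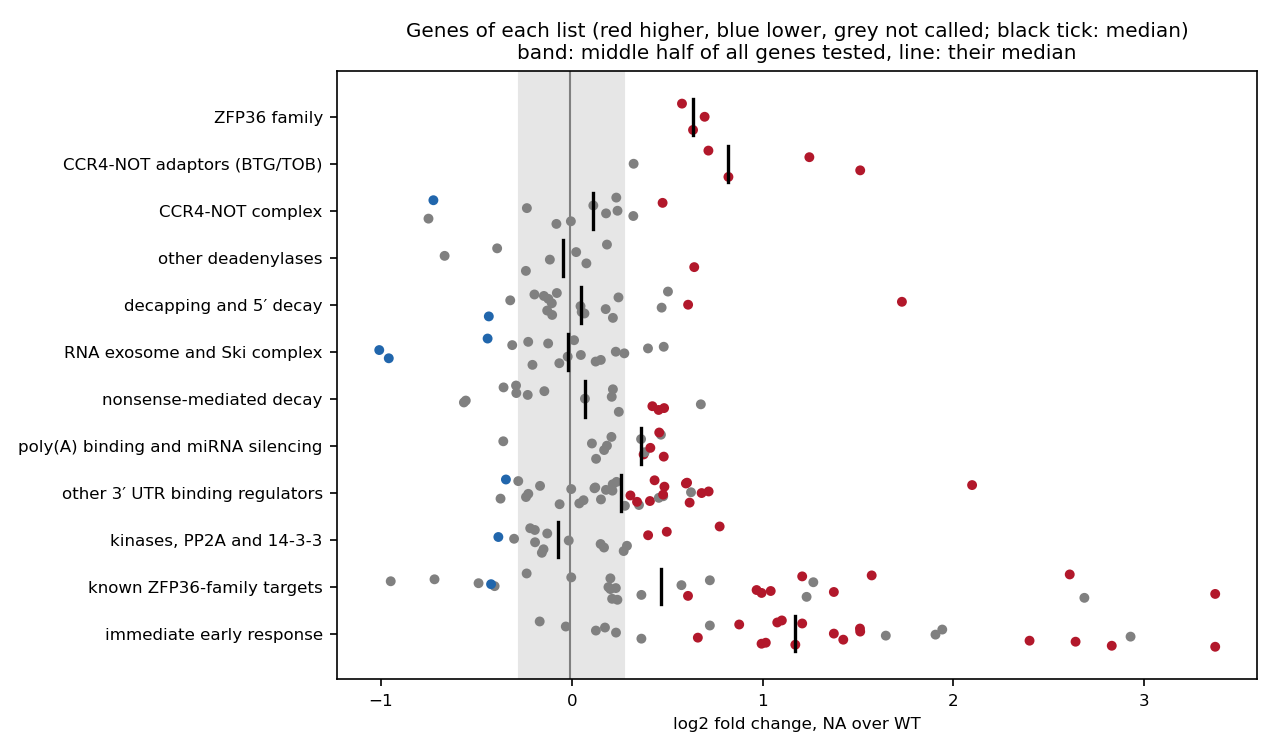
Log2 fold change, NA over WT (horizontal axis), of every tested gene of each list (rows), red where called higher, blue where called lower and grey where not called, with a black tick at the list median, a grey band for the interquartile range of all tested genes and a grey line at their median. The BTG and TOB adaptors (median 0.82) and the ZFP36 family (0.64) lie to the right of the band, the exosome list (-0.021) is centred on it with 3 blue points to its left, and the known targets (0.47) spread to 3.37.

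Transcripts known from other systems to be bound or destabilised by ZFP36-family proteins were also counted. Of 28 tested, 9 were higher, 18 were not called and 1 was lower (Ccnd3, -0.42, adjusted p 0.047), and the median log2 fold change was 0.47. This is 32.1% higher and 3.57% lower, where 10.1% and 7.87% of all tested genes were. Fos had a log2 fold change of 3.37 (adjusted p 7.46e-06), Plk2 of 2.61 (adjusted p 0.0359), Tnfaip3 of 1.57 (adjusted p 0.0106) and Dusp1 of 1.37 (adjusted p 7.28e-05 by limma). Plk2 was at 1.78 normalised counts in WT1 and at 95.1, 58.1 and 57.7 in WT2 to WT4, so its fold change rests in part on 1 library. The groups of Tnfaip3 overlapped, since WT2 (463) lay above NA1 (306). Several of these, Fos and Dusp1 among them, also belong to the immediate early response. Of 27 tested genes of that list, Zfp36 left out, 16 (59.3%) were higher and 0 lower, with a median of 1.17. Unadjusted, 21 were higher and 0 lower, where 16.9% and 15.6% of all tested genes were. Without NA4 and WT4 4 of 26 tested targets and 9 of 27 immediate early genes were called, all higher. In that setting 515 of all 11117 tested genes were called. With WT1 left out, the median was 0.92 for the immediate early list and 0.35 for the known targets. There 15 of 27 and 7 of 28 were higher and 0 lower, where 930 and 619 of all 11332 tested genes were higher and lower. WT1 had the lowest summed level of immediate early genes.

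For comparison with Zfp36, Fos was at 804, 3128, 3154 and 1904 normalised counts in WT1 to WT4, which is the order of Zfp36 in those libraries, and at 20422, 20355, 21297 and 19676 in NA1 to NA4. Among NA libraries the orders differed, since Fos was lowest in NA4 and Zfp36 in NA1, and both were highest in NA3. The summed level of the listed immediate early genes was 14659, 31778, 28478 and 22263 in WT1 to WT4, highest in WT2 where Zfp36 was highest in WT3, and it was between 55969 and 65072 in NA libraries. Some genes of this list are known to rise while tissue is dissociated and cells are sorted, and the part of handling in the level of Zfp36 was not tested.

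**Figure D4:**
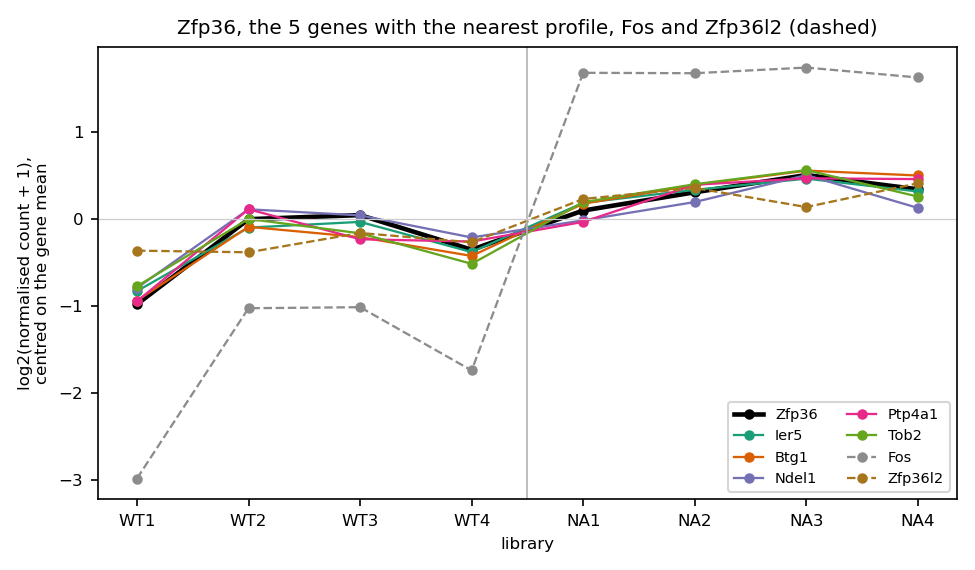
Log2(normalised count + 1), centred on the mean of each gene (vertical axis), in the 8 libraries (horizontal axis) for Zfp36 (thick black), the 5 genes with the nearest profile (solid colours), and Fos and Zfp36l2 (dashed). Zfp36 and its 5 nearest genes are lowest in WT1. The 5 genes lie 0.079 to 0.133 from Zfp36 (root mean square, log2), the measure by which they were chosen. Fos spans a much wider range, and Zfp36l2 does not dip in WT1 in the same way.

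The genes with the most similar profiles differed between the family members. Likeness was the root mean square difference of centred log2 values over the 8 libraries, among 9000 genes that averaged 50 normalised counts or more. The libraries share genotype and handling, so this is a description only. Nearest to Zfp36 were Ier5 (0.0790), Btg1 (0.122), Ndel1 (0.132), Ptp4a1 (0.132) and Tob2 (0.133), of which Ier5 is an immediate early gene and Btg1 and Tob2 are the deadenylase adaptors described above. Nearest to Zfp36l1 were Pnrc1 (0.105), Rab11fip1 (0.114), Gyg (0.127), Cmtm6 (0.131) and Fam184a (0.132). Nearest to Zfp36l2 were Dnajc2 (0.0469), Chmp5 (0.0594), Miga1 (0.0601), Wdr26 (0.0607) and Actr2 (0.0617). No gene was shared among the 3 sets of neighbours.

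The promoter sequences of 6 members were at hand in the RefSeq set (build GRCm38.p6, 250 bases before to 50 after each start), namely Zfp36, Zfp36l1, Elavl1, Cnot6l, Cnot8 and Dcp1a. Zfp36l2, Cnot1, Cnot7 and Dcp2 were not among the entries. Motifs were searched on both strands. Zfp36 was the only member with the EGR site GCGGGGGCG, which 2.91% of 32851 promoters hold, and the only one with a CArG box, the site of serum response factor, which 1.63% hold. An SP1 site (GGGCGG, 35.7% of promoters) was found in Zfp36, Cnot6l and Cnot8, and TATAAA (13.6%) in Zfp36l1. The cyclic AMP element TGACGTCA (1.79%), the AP-1 site TGACTCA or TGAGTCA (5.20%), the second EGR site GCGTGGGCG (0.612%) and the PBX-HOX site TGATTNAT (3.22%) were found in none of the 6. The 80 bases below hold the EGR site of Zfp36 (bases -105 to -97 from the start) and its CArG box (-58 to -49). They are shown because no other member promoter searched held either motif. Capitals mark those motifs, and the SP1 match on the other strand shares 1 base with the CArG box.
Zfp36, chr7:28379269-28379348, minus strand: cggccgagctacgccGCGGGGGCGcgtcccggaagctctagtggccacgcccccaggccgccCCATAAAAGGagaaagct
The level of Egr1 was 5419 ± 638 in NA and 904 ± 293 in WT libraries (SD, n = 4 each), which gave a log2 fold change of 2.64 (adjusted p 7.00e-07 by limma). Whether these sites are bound in MPPs was not measured.

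Genes with the AU-rich nonamer in their 3′ UTR were compared with genes without it, since these are the candidate substrates of the family. Of 932 tested genes with a copy, 13.3% were higher and 5.90% lower in NA MPPs, with a median log2 fold change of 0.086. By number of copies, 13.98% of 708 genes with 1, 13.5% of 133 with 2 and 7.69% of 91 with 3 or more were higher. Of 9798 genes without a copy, 10.2% were higher and 8.19% lower, with a median of -0.017. The genes with a copy had longer 3′ UTRs (median 2383 bases) and a lower transcript GC content (46.5%) than those without (1097 bases and 49.7%). Tested genes were also divided into 4 equal bins by 3′ UTR length. In the bin with the longest 3′ UTRs 15.1% of 483 genes with a copy and 14.7% of 2199 genes without one were higher, and 4.55% and 4.23% were lower. In the bin with the shortest 3′ UTRs 7.84% of 51 genes with a copy and 5.16% of 2635 genes without one were higher. In the 2 bins between them the shares were 8.63% of 139 genes with a copy and 9.40% of 2542 without, and 13.5% of 259 and 12.4% of 2422. With the GC trend removed, 9.98% of genes with a copy and 8.51% of genes without one were higher. With total-count scaling the shares were 10.5% and 8.16%. Without NA4 and WT4 they were 3.63% and 3.45%.

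**Figure D5:**
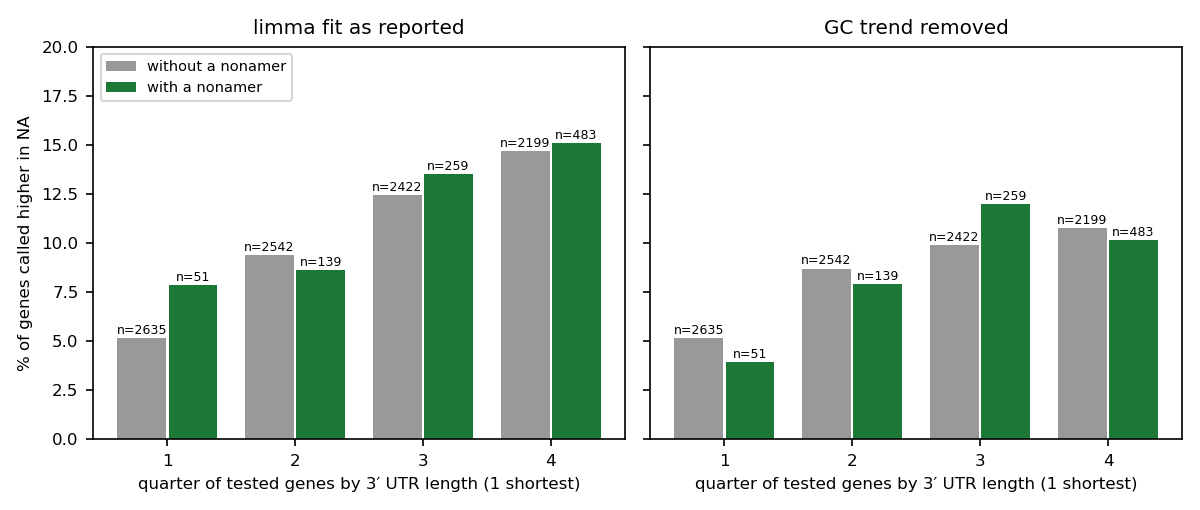
Percentage of tested genes called higher in NA MPPs (vertical axis) in 4 equal bins of 3′ UTR length from shortest to longest (horizontal axis), for genes without (grey) and with (green) the nonamer, in the limma fit as reported (left) and after the GC trend was removed (right), with the number of genes above each bar. On the left both kinds of bar are tallest in the longest bin (14.7% without and 15.1% with the nonamer), and on the right the longest bin is at 10.8% and 10.1%.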

How the data were processed

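Bone marrow MPPs were sequenced by the authors as poly(A) RNA from 1000-cell aliquots, with cDNA amplified before tagmentation (Nextera XT). Per the labels, the tools were bcl2fastq, RSEM and DESeq2 and the build was mm10; versions and strand use are not given in the sources used here. The deposited values were treated as a normalised signal, not raw counts: RSEM estimated counts divided by 1 size factor per library, since 98.4% to 98.9% of values between 0.5 and 100 were whole multiples of a step (within 0.05 of a step). Whole reads could not be recovered for all values, so the count models planned as alternatives were not run. Symbols came from GENCODE M21 (32916 rows matched; unmatched rows held 0.779% of the values). Groups came from sample titles.

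Log2(normalised count + 1) values were compared between NA and WT with limma 3.58.1 (R 4.3.3), with a mean-variance trend, no covariates and Benjamini-Hochberg adjustment over genes with at least 10 in at least 4 of 8 libraries (threshold 0.05). Fold changes are on this scale, which understates changes of low genes. The code was tested on simulated data. Named genes were the 10 members, at most 4 called genes per list (largest changes among means of at least 50) and the 5 nearest profiles per ZFP36-family gene. Egr1, and the Btg3, Slamf1, Cnot9, Cnot10 and marker values, were added where a result turned on them. Members and lists were chosen with earlier results of these data known. Amplified reads without molecular identifiers are not independent molecules, so depth limits counting error only.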

Additional observations from a re-analysis of the deposited data

Results flagged for a closer look

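Of 88 groups of 4 libraries examined (the members and the genes named from the wider lists, in NA and in WT), 5 held 1 library that stood apart from the other 3 by Dixon's criterion, where chance alone would give about 4.4. Cnot1 was at 794.7 normalised counts in WT3 and at 871 to 880 in the other WT libraries. Dcp2 was at 245.3 in NA2 and at 325 to 341 in the other NA libraries. Cnot10 was at 327.3 in WT2 against 249 to 261, Pan3 at 2464 in WT3 against 1463 to 1610, and Upf2 at 192.6 in WT1 against 236 to 244. None of the 3 called ZFP36-family genes was among them.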

How the results depend on the processing

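Zfp36l2 was called higher in all 21 alternatives (log2 fold change 0.51 to 0.65), Zfp36 in 16 (0.42 to 0.76) and Zfp36l1 in 8 (0.56 to 0.89), and none of the 3 changed direction. The call of 3 members became 1 with no filter on low values, 1 without the variance trend, 1 without NA4 and WT4, and 1 to 3 with single libraries left out (1 without NA3 or NA4). The 40 called genes of the decay lists, members included, became 20 without the variance trend, 8 without NA4 and WT4, and 19 (NA4) to 38 (NA1) with 1 library left out. Genes with the nonamer went from 179 called to 115, 40 and 92 (NA4) to 196 (NA1) in the same settings. Of all genes, 2053 were called, 515 without NA4 and WT4, and 1106 (NA4) to 2141 (NA3) with 1 library left out (1294 without WT4); total-count scaling gave 2239, of which 41.3% were higher against 56.1%. Cnot6l and Dcp2, which were not called, changed sign: Cnot6l with the GC trend removed, with or without the replicate block (-0.0072), and Dcp2 without NA2 (0.0065, against -0.19 without WT1). Cnot7 was called lower only with the GC trend removed. The cause was not tested.

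With the replicate number as a block 2004 genes were called and 3 of the members, the same 3 as without it. The adjusted p of Zfp36 by limma was 0.00346 there. In that fit 20 of 27 immediate early genes were higher, where 1145 of all 11451 tested genes were. Correlations of deviations between libraries with the same number were 0.150, 0.000524, 0.0034 and 0.237. Those between libraries with other numbers ran from -0.142 to 0.179. These values do not settle whether the numbers mark pairs, and the main fit took none. The edgeR and DESeq2 alternatives were not run because the values are not counts.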
